A study of Mus musculus with 22 samples.

Results

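RNA from the subpolysome part of a sucrose gradient was compared between mouse bladder organoids that were wild type (WT) or knocked out (KO) for Arid1a. The members are the libraries whose titles name the subpolysome fraction, 3 WT and 3 KO, which makes 6 of the 22 libraries of the series. Both groups are labelled as primary urothelial organoids, that is, cultures of the bladder lining grown in 3 dimensions, and the labels name no treatment, time, strain or age. Total RNA and polysome RNA of organoids of both genotypes, again 3 libraries per group, serve below only to show where the subpolysome fraction differs. How Arid1a was deleted, in which part of the gene, and whether the numbered libraries came from separate animals, is not given in the sources used here. The p-values therefore speak of the spread among these libraries only, part or all of which could be technical.

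Arid1a encodes a large subunit of BAF, the SWI/SNF chromatin remodeller that moves nucleosomes, and it is often mutated in bladder cancer. A sucrose gradient separates cell lysates by size. mRNAs that carry many ribosomes sediment deep as polysomes, while free RNA particles, ribosomal subunits and single ribosomes stay in the lighter subpolysome part. mRNAs of ribosomal proteins and elongation factors carry a pyrimidine tract at the very 5′ end (the terminal oligopyrimidine or TOP motif) and are known to leave polysomes when signalling through the kinase mTOR is low.

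The deposited values were raw read counts for 24421 gene rows, with 39245248 to 51628570 counts per subpolysome library. Levels are given as CPM, the counts scaled to library size with TMM factors within the 6 libraries. A level of 1 CPM stood for at least 39.2 counts. The first principal component of the log2 CPM values held 57.2% of the variance and separated the genotypes, and the second, with 13.9%, set KO library 2 apart from the other KO libraries. Counts of any pair of libraries of 1 group differed by at least 30.8 times the degrees of freedom in a chi-square statistic, far beyond sampling noise. KO library 3 had the lowest total and by far the most reads on rows related to ribosomal RNA, as described further below.

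Some kinds of RNA lay far above their polysome level in the subpolysome libraries. snoRNA host genes, whose spliced RNAs carry few ribosomes, were higher in subpolysomes than in polysomes in each pair of libraries with the same genotype and number. Their median ratio was 3.57 to 4.35 on the log2 scale, with 13 of 13 genes above 0. Nuclear long noncoding RNAs lay 3.63 to 3.93 above polysomes (5 of 5 genes). Ribosomal protein mRNAs lay 3.05 to 3.84 above (79 of 80 genes), while the median of all 11603 genes compared was between -0.10 and -0.05. Of these 11603 genes 5262 to 5577 were above 0. Genes were kept at a mean of at least 1 CPM over all 18 libraries, which left 13 of 17 host genes and 5 of 12 long noncoding RNAs. High subpolysome levels alone can pass that filter, so the counts above 0 only describe the genes kept. Ribosomal protein genes took 34.0% to 39.8% of all subpolysome counts, against 9.27% to 10.5% in total RNA and 4.56% to 6.89% in polysomes.

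The cells behind the fraction were epithelial by their markers. The 10 epithelial markers summed to 4321 to 4494 CPM in WT and 4676 to 4834 CPM in KO libraries. Epcam, an adhesion molecule of epithelia, was lower in KO (162, 177 and 172 to 52.6, 64.7 and 47.5 CPM, log2 -1.63, SE 0.12, adjusted p = 1.36e-10), and Krt8, Upk1b, Trp63 and Upk2 of the same list were higher. Of 17 immune markers, 9 had 0 counts in all 6 libraries, among them Ptprc, Cd3e and Lyz2. The list summed to 28.7 to 33.3 CPM in WT and 43.9 to 48.1 CPM in KO, nearly all of it from Cd14 and Cd68. Cd68, a lysosomal protein of macrophages that other cells also make, had 6.89, 9.95 and 7.08 CPM in WT against 19.03, 16.2 and 16.3 in KO libraries (log2 1.11, SE 0.17, adjusted p = 2.07e-05), with no overlap. Fibroblast (10 genes), endothelial (8), smooth muscle (6) and neural (6) markers each summed to less than 5 CPM in every library, and Col1a2, Lum, Cdh5, Kdr, Des and Sox10 were at 0. The part of other cell types in the results below was not tested beyond these levels. In bulk libraries fewer cells of a type and less RNA per cell cannot be told apart.

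**Figure D1:**
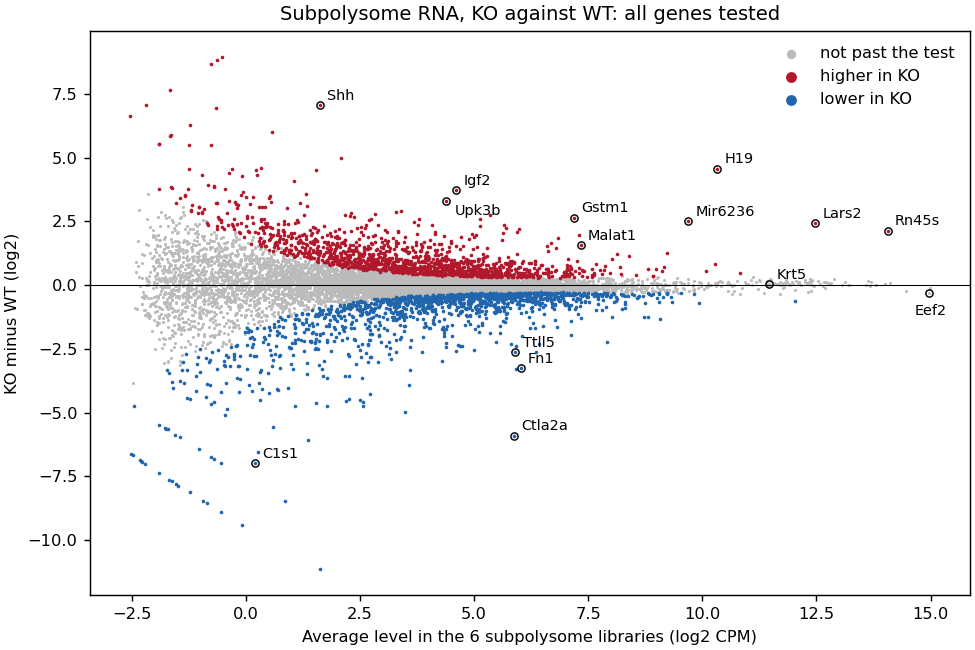
Each point is 1 of the 12645 genes tested in subpolysomes: the x axis gives its average level in log2 CPM and the y axis its log2 difference, KO minus WT. Red genes were higher in KO (1391) and blue genes lower (1391) at an adjusted p under 0.05; circled genes are named in the text.

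Loss of Arid1a went with wide differences in the subpolysome RNA. Higher in KO were 17 of 29 tested luminal genes, among them the uroplakins of the bladder surface, and 57 of 70 mitosis genes. Lower in KO were 20 of 33 genes of the extracellular matrix and the epithelial to mesenchymal transition. Of 12645 genes with enough counts, 1391 were higher in KO (11% of those tested) and 1391 were lower (11%), by edgeR's quasi-likelihood test at a Benjamini-Hochberg adjusted p under 0.05. At least a 2-fold difference was found for 585 of the higher genes (4.63% of those tested) and 490 of the lower ones (3.88%). The 3 KO libraries lay wholly above or wholly below the 3 WT libraries for 4648 genes (36.8%). The median over all genes tested was 0.0056 on the log2 scale. The 11% in each direction is the background for the subpolysome list counts given below.

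H19, an imprinted long noncoding RNA on chromosome 7 (142575530 to 142578146, GRCm38.p6), had the largest rise among well expressed genes. Its levels were 114, 91.7 and 108 CPM in WT against 2874, 2131 and 2393 in KO libraries. Every KO library lay more than 10 times above every WT library, and the fitted difference was 4.56 on the log2 scale (SE 0.15, adjusted p = 2.11e-16). Igf2, the imprinted growth factor gene next to it (142650768 to 142666816), had 3.22, 3.03 and 4.11 CPM in WT against 46.0, 43.8 and 46.2 in KO libraries (log2 3.72, SE 0.15, adjusted p = 7.99e-15). The KO libraries were close to each other and far above WT. In the RefSeq annotation Mir675 overlaps H19, and Igf2os and Mir483 overlap Igf2, and whether the counting used strand is not given in the sources used here.

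Other genes among the 12 highest had different roles. Ndrg2, a gene induced in differentiated cells, rose from 11.1, 10.6 and 10.1 to 73.9, 67.1 and 70.5 CPM (log2 2.74, SE 0.12, adjusted p = 1.92e-14). Fabp4, a carrier of fatty acids and a known target of PPARG, rose from 23.4, 23.9 and 20.1 to 105, 108 and 95.9 CPM (log2 2.20). Krt23, an acidic keratin, Ptprr, a tyrosine phosphatase, Fmo5, a flavin monooxygenase, and Dnmt3l, a cofactor of DNA methyltransferases, rose by log2 2.24, 2.58, 2.36 and 2.08. All 24 genes of the naming rule by size, 12 in each direction, were called in the same direction in total RNA and in polysomes, and none lost its call under an alternative that was run.

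The luminal list holds uroplakins, which form the plaques of the bladder surface, and other genes of differentiated urothelium. Of 30 listed genes 29 had enough counts, of which 17 were higher and 3 lower in KO, with a median of 0.42. Upk3b had 3.26, 4.47 and 3.80 CPM in WT against 32.8, 40.7 and 39.5 in KO libraries, and Upk3a had 10.3, 10.4 and 13.96 against 46.3, 71.9 and 56.3. Neither gene's groups overlapped (log2 3.29, SE 0.16, adjusted p = 9.14e-14, and log2 2.33, SE 0.15, adjusted p = 3.6e-11). Upk1a rose from 45.6, 48.6 and 56.1 to 131, 148 and 152 CPM (log2 1.52), Upk1b from 56.0, 56.9 and 54.0 to 108, 101 and 109 (log2 0.93), and Upk2 from 1.67, 1.58 and 1.62 to 6.56, 5.31 and 6.24 (log2 1.89, adjusted p = 1.01e-05). Fgfr3, a growth factor receptor often activated in papillary bladder tumours, had 2.48, 2.20 and 2.34 CPM in WT against 16.4, 18.2 and 17.2 in KO libraries (log2 2.88, SE 0.18, adjusted p = 1.07e-11). Pparg, a nuclear receptor that drives luminal genes, rose from 24.1, 22.9 and 21.1 to 42.7, 51.9 and 44.6 CPM (log2 1.03, SE 0.12, adjusted p = 5.17e-07). All of these uroplakin, receptor and regulator genes had every KO library above every WT library.

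The 3 luminal genes that fell went against the other called genes of the list. Cd24a, a glycoprotein of the cell surface, fell from 363, 427 and 406 to 85.0, 84.9 and 80.9 CPM (log2 -2.25, SE 0.11, adjusted p = 1.45e-13). Sncg, a member of the synuclein family, fell from 97.2, 107 and 113 to 24.8, 23.2 and 32.0 CPM (log2 -1.99), and Krt20, a keratin of surface cells, from 3.98, 3.23 and 2.25 to 0.580, 0.834 and 1.52 CPM (log2 -1.70, adjusted p = 0.00459). Groups did not overlap for any of them.

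Basal and squamous genes moved both ways. In the basal list 5 of 26 tested genes were higher and 8 lower (median -0.04), beside 11% of all genes in each direction. Shh, the hedgehog ligand that basal urothelial cells make, had 0, 0 and 0.131 CPM in WT against 6.42, 6.20 and 5.40 in KO libraries, so it was at or close to 0 in WT and present in every KO library (adjusted p = 1.56e-09). Trp63, which encodes the basal regulator p63, rose from 115, 108 and 100 to 174, 173 and 159 CPM (log2 0.65, SE 0.10, adjusted p = 4.33e-05). The keratin gene Krt6a fell from 398, 338 and 372 to 157, 133 and 170 CPM (log2 -1.27) and Krt17 from 27.9, 30.01 and 38 to 9.97, 11.98 and 9.68 CPM (log2 -1.60). Krt5 showed 2904, 2664 and 2766 CPM in WT against 2916, 2742 and 2856 in KO libraries, with overlapping groups (log2 0.03, SE 0.12, adjusted p = 0.901). In the squamous list 8 of 27 were higher and 10 lower, beside the same 11% of all genes. Rptn, an epidermal matrix protein, rose from 17.9, 18.4 and 13.0 to 93.7, 80.5 and 77.2 CPM (log2 2.35), and Sprr2h, a cornified envelope protein, fell from 18.96, 16.2 and 15.2 to 4.32, 3.56 and 3.78 CPM (log2 -2.11). Without WT library 1 the lower count of the squamous list was 6 rather than 10.

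**Figure D2:**
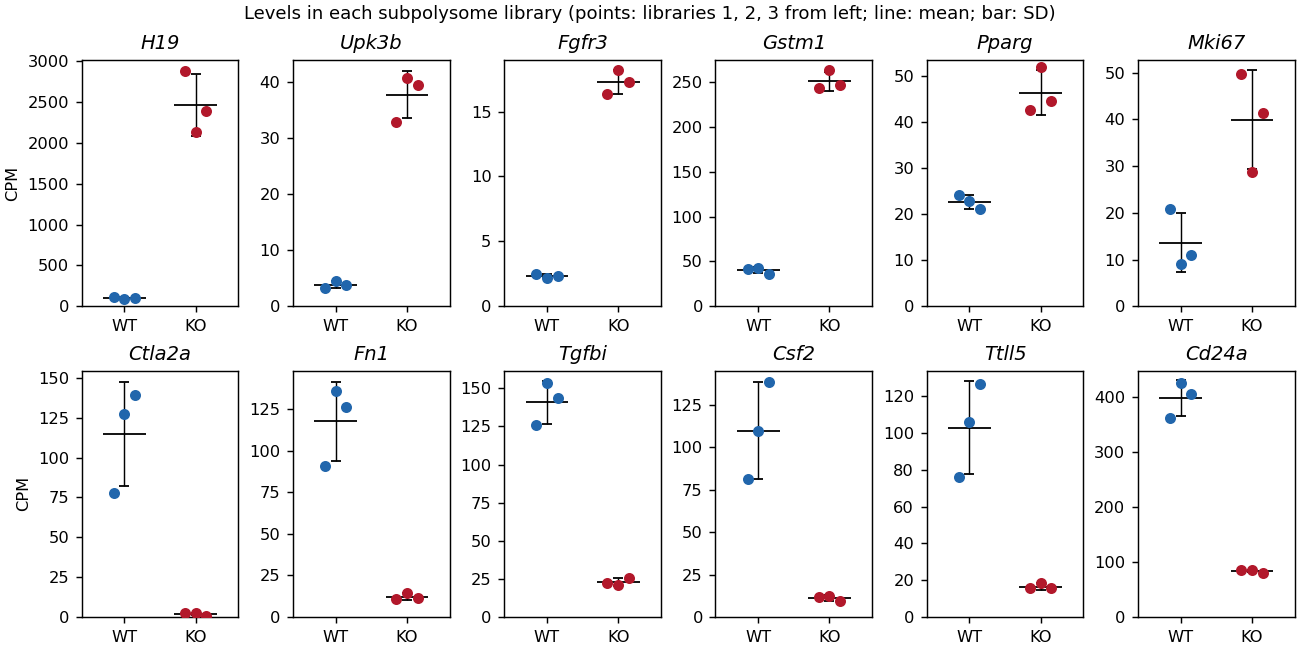
Levels of 12 genes in each subpolysome library, in CPM on linear axes that start at 0; points are the libraries, lines the means and bars the SD of 3 libraries. In every panel the WT and KO libraries are apart: H19 lies between 2131 and 2874 CPM in KO and at or below 114 CPM in WT, and Ctla2a between 0.865 and 2.44 CPM in KO and at or above 77.8 CPM in WT.

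Genes of the extracellular matrix and of the epithelial to mesenchymal transition had a median of -1.24, the lowest among the lists with at least 16 tested genes. Of 48 listed genes 33 had enough counts, of which 20 were lower and 0 were higher. In total RNA 27 of 35 were lower and 4 higher, and in polysomes 21 of 33 were lower and 0 higher, at a background of 26.3% and 13.8% of all genes called lower there. Fibroblast markers summed to 2.21 to 3.28 CPM in WT and 0.918 to 1.80 CPM in KO libraries, with Lum and Col1a2 at 0 throughout, and smooth muscle markers to 1.16 to 2.20 CPM in WT and 3.09 to 4.78 CPM in KO, with Des and Actg2 at 0. The part of these cells in the matrix result was not tested. Fn1, the matrix glycoprotein fibronectin, had 90.6, 136 and 126 CPM in WT against 10.6, 14.6 and 11.3 in KO libraries (log2 -3.27, SE 0.15, adjusted p = 4.99e-14). Tgfbi, a matrix protein induced by TGF-beta, had 126, 153 and 144 against 22.4, 20.7 and 25.6 CPM (log2 -2.62, SE 0.12, adjusted p = 4.61e-14). Adam12, a membrane metalloprotease, had 11.4, 9.68 and 11.03 against 0.420, 0.569 and 0.393 CPM (log2 -4.52, SE 0.27, adjusted p = 4.87e-12). For these 3 genes the lowest WT library was several times above the highest KO library.

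Col4a1 and Col4a2, the chains of basement membrane collagen IV, fell together and share a start region on chromosome 8. They are transcribed away from each other. An annotated RefSeq start of each lies at 11312826 (Col4a1, minus strand) and 11312805 (Col4a2, plus strand), so that transcripts from these starts overlap. The annotated Col4a1 gene reaches further, to 11312889. The plus strand is shown with the 22 bases that lie between and include these starts in capitals (chr8:11312801-11312830, GRCm38.p6).
Col4a1 and Col4a2 starts: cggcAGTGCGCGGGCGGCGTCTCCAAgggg
Col4a1 had 10.96, 7.92 and 8.32 CPM in WT against 0.300, 0.590 and 0.315 in KO libraries (log2 -4.48, SE 0.32, adjusted p = 9.19e-11). Col4a2 had 7.04, 10.4 and 10.99 against 0.841, 0.813 and 1.68 CPM (log2 -3.11, SE 0.29, adjusted p = 1.57e-08). Both genes had every KO library below every WT library.

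Secreted signals and protease regulators held several of the deepest falls. Ctla2a, an inhibitor of cysteine proteases, had 77.8, 127 and 139 CPM in WT against 2.44, 2.28 and 0.865 in KO libraries (log2 -5.91, SE 0.25, adjusted p = 8.98e-15). Ctla2b, its close paralog, fell as well, from 9.97, 12.1 and 11.9 to 0.440, 0.244 and 0.760 CPM (log2 -4.59), and 11.4% of the 50-base windows of Ctla2a transcripts also occur in Ctla2b, so reads can be exchanged between them. Csf2, the cytokine GM-CSF, fell from 81.2, 110 and 139 to 11.9, 12.5 and 9.15 CPM (log2 -3.29, SE 0.16, adjusted p = 1.55e-13). In the list of cytokines and NFkB genes 10 of 28 tested were lower and 4 higher, beside 11% of all genes in each direction. Ccl2, a chemokine for monocytes, fell from 20.7, 17.4 and 27.5 to 1.84, 2.36 and 2.33 CPM (log2 -3.33), and Lif, a cytokine of the IL-6 family, from 104, 112 and 130 to 37.7, 45.6 and 39.6 CPM (log2 -1.49). Il33, an alarmin of epithelial nuclei, rose from 136, 168 and 133 to 275, 253 and 252 CPM (log2 0.84, SE 0.11, adjusted p = 3.82e-06). In the list of secreted protease regulators 8 of 20 were lower and 4 higher, beside the same 11% of all genes. Among the higher ones was Plat, the tissue plasminogen activator, with 4.17, 2.49 and 4.87 CPM in WT against 19.8, 13.7 and 14.8 in KO libraries (log2 2.06, adjusted p = 8.26e-08).

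The 12 lowest genes by the naming rule also included Wnt5a, a Wnt ligand (41.1, 41.0 and 47.4 to 8.85, 7.58 and 8.21 CPM, log2 -2.39), and Tead2, a partner of YAP on DNA (24.3, 37.4 and 43.8 to 5.10, 7.87 and 6.79 CPM, log2 -2.42). Prss23, a secreted serine protease, Sorcs2, a sorting receptor, Antxr2, an anthrax toxin receptor that binds matrix, Fam167a and Nkain1 completed the list with Ttll5, which is described below. Their log2 differences ran from -2.96 (Prss23) to -2.37 (Nkain1), and no WT library of these genes overlapped a KO library. Of 22 tested YAP target genes 8 were lower and 2 higher (median -0.35), beside 11% of all genes in each direction. The higher share was thus near that of all genes.

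In the NRF2 and glutathione list 16 of 44 tested genes were higher, 4 were lower and 24 did not pass (median 0.31). Of all genes tested 11% were higher and 11% lower. Gstm1, a glutathione transferase, had 41.6, 42.3 and 36.6 CPM in WT against 243, 263 and 247 in KO libraries (log2 2.64, SE 0.11, adjusted p = 8.98e-15). Slc7a11, the cystine importer, had 47.8, 52.9 and 48.3 against 203, 160 and 172 CPM (log2 1.84, SE 0.11, adjusted p = 9.4e-12). Gclm, a subunit of the enzyme that starts glutathione synthesis, rose from 9.74, 9.08 and 7.32 to 19.7, 19.9 and 18.4 CPM (log2 1.15), and the quinone reductase Nqo1 from 26.6, 30.01 and 19.1 to 46.4, 44.5 and 52.99 CPM (log2 0.92). Against them Akr1c13, an aldo-keto reductase, fell from 44.8, 52.0 and 62.1 to 14.4, 20.8 and 20.9 CPM (log2 -1.50), and Mgst2, a membrane glutathione transferase, from 19.2, 22.1 and 25.2 to 5.36, 10.3 and 8.10 CPM (log2 -1.49).

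Genes of mitosis formed the list with the most members called: 57 of 70 tested were higher and 0 lower, with a median of 1.32. Cenpa, the histone of centromeres, had 27.9, 21.5 and 22.6 CPM in WT against 52.1, 48.9 and 52.1 in KO libraries (log2 1.09, SE 0.12, adjusted p = 2.6e-07). Cdk1, the kinase that starts mitosis, had 6.71, 5.72 and 5.90 against 18.6, 13.7 and 15.4 CPM (log2 1.38, SE 0.17, adjusted p = 1.09e-06). Mki67, the proliferation antigen, had 20.9, 9.05 and 11.1 against 49.8, 28.7 and 41.4 CPM (log2 1.54, SE 0.22, adjusted p = 7.75e-06). WT library 1 was the highest WT library for each of them, and the whole list summed to 470, 312 and 338 CPM in WT against 881, 631 and 763 in KO libraries. Of 62 DNA replication genes 36 were higher and 0 lower (median 0.72), among them the helicase subunits Mcm3 (5.71, 4.45 and 4.17 to 14.6, 12.04 and 17.9 CPM, log2 1.63) and Mcm6 (5.08, 3.43 and 3.93 to 13.9, 12.2 and 12.3 CPM, log2 1.63). Cdkn2a, which encodes inhibitors of the cell cycle, fell from 60.7, 74.6 and 80.2 to 24.1, 32.1 and 25.0 CPM (log2 -1.41, SE 0.13, adjusted p = 1.15e-08), and Cdkn1a from 230, 236 and 249 to 168, 175 and 185 CPM (log2 -0.44, adjusted p = 0.00274). Myc (log2 -0.09, SE 0.13, adjusted p = 0.695) and Ccnd1 (log2 -0.08, SE 0.11, adjusted p = 0.655) did not pass.

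Metabolic lists leaned the same way with smaller differences. For glycolysis and hypoxia 16 of 35 tested genes were higher and 2 lower (median 0.39), and without WT library 2 the higher count was 9. For cholesterol and fatty acid synthesis 19 of 42 were higher and 1 lower (median 0.34). The higher count was 11 without WT library 2, without WT library 3, or when libraries were scaled by their totals alone. Over all genes the higher count fell too, from 1391 to 1000, 1155 and 1102 in these settings. Aldoc, a glycolytic aldolase, rose from 10.1, 9.66 and 7.47 to 24.2, 17.8 and 22.3 CPM (log2 1.24). Lss, lanosterol synthase of the cholesterol pathway, rose from 11.6, 8.52 and 8.93 to 23.1, 17.3 and 22.9 CPM (log2 1.12). Neither gene's groups overlapped.

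Interferon genes had a median of 0.59. Of 34 tested genes (43 listed) 8 were higher and 0 lower, beside 11% of all genes in each direction. In the fit over all 18 organoid libraries 14 of 41 tested were higher and 3 lower. Over all 13787 genes of that fit 2008 were higher and 2112 lower. Irf7, a transcription factor of the interferon response, had 3.59, 4.14 and 4.35 CPM in WT against 15.1, 13.1 and 11.2 in KO libraries (log2 1.71, SE 0.19, adjusted p = 2.05e-07). Oasl1, an antiviral protein, rose from 1.07, 1.27 and 1.83 to 3.38, 6.87 and 5.95 CPM (log2 1.96, adjusted p = 7.91e-05). Of 20 tested genes of MHC class I presentation 1 was higher and 2 were lower, near or below the shares of all genes. The lower count was 0 to 2 without 1 library at a time.

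Stress and growth lists had called genes in both directions, beside 11% of all genes tested called higher and 11% lower. Of 32 tested p53 target genes 6 were higher and 6 lower, of 33 AP-1 and immediate early genes 5 and 5, of 47 genes of the integrated stress response and tRNA synthetases 4 and 6, and of 37 genes of the ER and its stress response 2 and 4. The shares of the integrated stress response and ER lists were thus near or below those of all genes. Those of the p53 and AP-1 lists were above them in each direction, and whether by more than chance was not tested. Jun, a subunit of AP-1, fell from 132, 85.5 and 139 to 53.3, 73.5 and 82.6 CPM (log2 -0.77, SE 0.16, adjusted p = 0.000584), and Ereg, a ligand of the EGF receptor, rose from 14.4, 10.9 and 11.5 to 26.7, 23.02 and 22.5 CPM (log2 0.97). Psat1, an enzyme of serine synthesis, rose from 252, 213 and 210 to 418, 295 and 384 CPM (log2 0.70), while Nupr1, a stress-induced chromatin protein, fell from 1092, 1177 and 1363 to 658, 795 and 775 CPM (log2 -0.70). Groups were apart for these 4 genes. The lower count of the integrated stress response list was 2 without WT library 3 or KO library 1 and 3 without KO library 2, and the AP-1 counts were 3 and 3 without WT library 2 or KO library 1 and 3 lower without KO library 3. The ER counts were 1 higher and 2 lower without WT library 2 or KO library 3, 1 higher without WT library 3 or KO library 1, and 5 higher in the fit over 18 libraries, where 11 p53 target genes were lower. Over all genes tested the counts without 1 library at a time were 1000 to 1293 higher and 993 to 1257 lower. In the fit over 18 libraries they were 2008 and 2112, beside the reported 1391 and 1391. Of 65 listed histone genes, whose main mRNAs lack poly(A) tails, 16 had enough counts, with 2 higher and 3 lower. The higher count was 0 with library totals, with the replicate block and without WT library 2, WT library 3 or KO library 3, 1 with DESeq2 or without WT library 1, and 7 in the fit over 18 libraries. The lower count was 1 without WT library 1, 2 or 3 or KO library 1. Hist1h1c, a linker histone, fell from 71.8, 53.6 and 88.7 to 15.9, 24.8 and 30.3 CPM (log2 -1.59, SE 0.18, adjusted p = 2.56e-07).

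**Figure D3:**
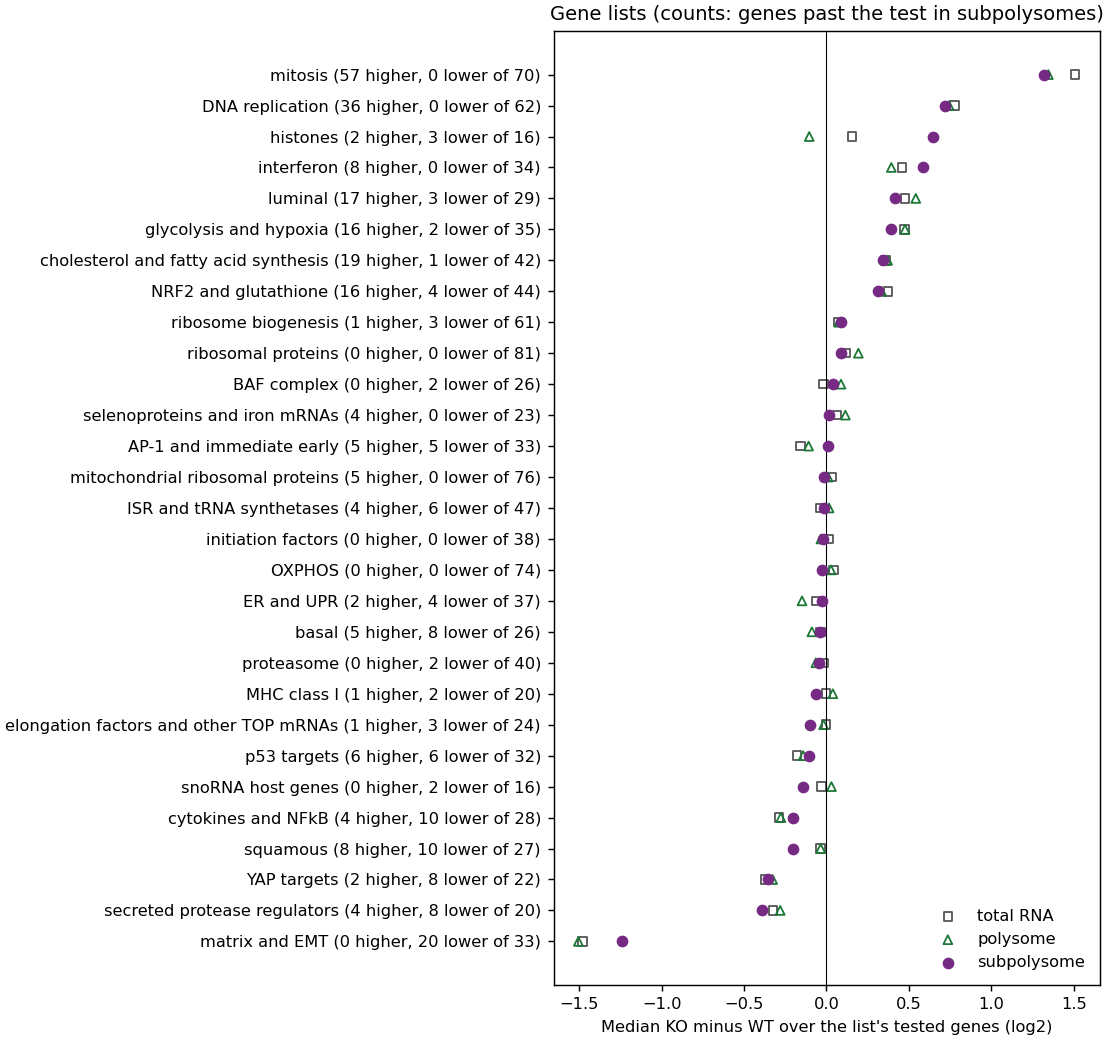
Median log2 difference, KO minus WT, over the tested genes of each list with at least 16 tested genes, in subpolysomes (filled circles), total RNA (squares) and polysomes (triangles). The numbers after each name count the genes past the test in subpolysomes; mitosis lies highest (1.32) and matrix and EMT lowest (-1.24).

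Ribosomal protein mRNAs, which took 34.0% to 39.8% of the subpolysome counts, differed little between the genotypes. Of 81 ribosomal protein genes 0 passed in either direction, with log2 differences from -0.29 to 0.33 and a median of 0.09. At an unadjusted p under 0.05 0 of them would be called, and DESeq2 called 1 lower, as did library totals alone and the fit without WT library 1. All 3 KO libraries lay above WT for 5 of these 81 genes and below WT for 1. That is a smaller share than the 36.8% of all genes tested whose groups did not overlap. In total RNA 44 of 80 tested ribosomal protein genes were higher in KO and 0 lower (median 0.12). The background was 27% of all genes called higher there, against 11% in subpolysomes. Both medians were close, so the difference in counts does not show that the small rise was absent from subpolysomes. In polysomes 1 was higher and 0 were lower, at a background of 14.9%. The summed ribosomal protein level was 311423, 365891 and 395513 CPM in WT against 411343, 358834 and 359358 in KO subpolysomes, so the groups overlapped, and WT library 1 was lowest.

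Starts of 4 RNAs of the fraction that hold a pyrimidine tract at or next to the annotated start are shown as examples of the motif. Not all annotated starts of these genes hold it. The RefSeq promoter table (GRCm38.p6) was searched on the transcribed strand for a C followed by at least 4 pyrimidines, with the C within 10 bases of the annotated start. Capitals mark that tract, and the sequences span 15 bases on either side of the start.
Rps6 (chr4:86857353-86857382, minus): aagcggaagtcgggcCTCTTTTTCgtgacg
Rpl15 (chr14:18270972-18271001, minus): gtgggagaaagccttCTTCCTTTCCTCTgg
Eef1a1 (chr9:78481710-78481739, minus): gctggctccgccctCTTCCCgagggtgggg
Gas5, its second annotated start (chr1:161035151-161035180, plus): agccgccatctcagcCTTTCggagctgtgc
Of 60 ribosomal protein genes with an entry, 37 held such a tract (61.7%), against 34.4% of all 27025 genes of the table. In the list of elongation factors and other TOP mRNAs 8 of 19 held one (42.1%), and the annotated start of Eef2 did not. A distance of 3 bases was chosen after the data had been seen. With it the shares were 43.3% of ribosomal protein genes, 31.6% of that list and 13.5% of all genes. A match is a description of the letters and not a shown start of transcription.

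Rps6, a protein of the small ribosomal subunit, had 1675, 1619 and 1617 CPM in WT against 1933, 1816 and 1750 in KO subpolysomes (log2 0.16, SE 0.12, adjusted p = 0.372). The KO values lay above WT without passing the test. Eef1a1, the elongation factor that brings tRNAs to the ribosome, had 34080, 33550 and 33680 against 34700, 28630 and 29360 CPM (log2 -0.13, SE 0.14, adjusted p = 0.595), with overlapping groups. Eef2, the factor that moves the ribosome along, had 29870, 37480 and 40200 against 28140, 28230 and 29100 CPM (log2 -0.33, SE 0.15, adjusted p = 0.12). All 3 KO libraries were below WT for Eef2, and it passed with DESeq2, with library totals alone and without WT library 1. Eef2k, the kinase that inhibits Eef2, rose from 18.4, 16.6 and 16.8 to 29.2, 27.4 and 33.7 CPM (log2 0.80, SE 0.13, adjusted p = 4.75e-05), with no overlap. In the list of elongation factors and other TOP mRNAs all 3 KO libraries lay below WT for 8 of 24 tested genes and above WT for 1. Groups did not overlap for 36.8% of all genes tested. Eef2k was the 1 gene of this list called higher and 3 were called lower, beside 11% of all genes in each direction. Among the lower ones was the intermediate filament gene Vim (68.6, 83.2 and 62.5 to 36.9, 37.2 and 26.2 CPM, log2 -1.09). The lower count was 6 with DESeq2, 5 with library totals alone or in the fit over 18 libraries, 2 without WT library 2 and 1 without KO library 3.

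Counts in other lists of gene expression and energy metabolism are set beside 11% of all genes tested called higher and 11% lower. The lower shares of the snoRNA host and BAF lists were near that of all genes. Of 38 initiation factor genes 0 passed, with log2 differences from -0.31 to 0.32, and of 74 genes of oxidative phosphorylation 0 passed. At an unadjusted p under 0.05 the counts would be 5 and 6. DESeq2 called 3 initiation factor genes lower, and 1 gene of oxidative phosphorylation higher and 2 lower. Without WT library 1 the latter list had 4 lower genes. Ribosome biogenesis had 1 of 61 higher and 3 lower. Without WT library 2 or KO library 1 the counts were 0 and 1, and in the fit over 18 libraries 3 and 6. The lowest p was that of Nop10, a protein of the RNA-modifying H/ACA particles (95.1, 102 and 114 to 77.9, 55.3 and 79.2 CPM, log2 -0.55, adjusted p = 0.00189). snoRNA host genes had 2 of 16 lower and 0 higher, and the lower count was 0 without WT library 2 or WT library 3, 1 without KO library 2 and 3 without WT library 1. Gas5, the host gene whose start is shown above, had 1379, 1763 and 1819 CPM in WT against 1465, 1385 and 1336 in KO libraries, with overlapping groups (log2 -0.24, SE 0.13, adjusted p = 0.19), and it passed without WT library 1. Of 26 tested BAF complex genes, Arid1a included, 0 were higher and 2 lower, and 1 was lower without WT library 1, WT library 2 or KO library 3. Smarcc1, a core subunit of the complex, fell from 43.2, 44.5 and 45.5 to 34.4, 31.0 and 29.8 CPM (log2 -0.49, SE 0.11, adjusted p = 0.00248), and Arid1b, the paralog of Arid1a, had 22.7, 22.1 and 18.3 against 26.4, 30.3 and 23.02 CPM (log2 0.34, SE 0.14, adjusted p = 0.0815), and passed with the replicate block and without KO library 3.

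Of 6 tested nuclear long noncoding RNAs 2 were higher in KO. Malat1 (chromosome 19, 5795690 to 5802672) had 67.2, 85.5 and 91.6 CPM in WT against 148, 272 and 306 in KO libraries (log2 1.57, SE 0.17, adjusted p = 2.28e-07). Neat1, the RNA of paraspeckles (chromosome 19, 5824708 to 5845480), had 262, 178 and 184 against 597, 372 and 415 CPM (log2 1.15, SE 0.15, adjusted p = 4.18e-06). Every KO library was above every WT library for both. They were higher in total RNA too (log2 1.31 and 0.89), and the difference between both effects did not pass in any of the settings tried (adjusted p from 0.406 to 0.966 for Malat1 and from 0.55 to 0.982 for Neat1).

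The KO effect in subpolysomes was next compared with that in total RNA. Of the 2782 genes called in subpolysomes 2635 were called in total RNA in the same direction and 5 in the opposite direction. Another 132 were tested there without passing, and 10 were not tested. Among all genes tested in total RNA 27% were called higher in KO and 26.3% lower. Of the 132, 52 were higher and 80 lower in subpolysomes, 15 had the opposite sign in total RNA and 12 were called in polysomes. Whether same-numbered libraries of the kinds of RNA share a lysate is not given. An interaction of genotype and kind of RNA over the 12 libraries tests the difference itself, and it passed for 4 of 13414 genes (0.0298%), with 879 at an unadjusted p under 0.05 and 13 with DESeq2. Against polysomes it passed for 1 of 13392 genes (0.00747%), with 758 at an unadjusted p under 0.05 and 12 with DESeq2. With genotype and replicate number together as a block the counts were 14 and 15, and with no filter on low counts 20 and 29. That block treats same-numbered libraries of a genotype as pairs across the kinds of RNA.

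**Figure D4:**
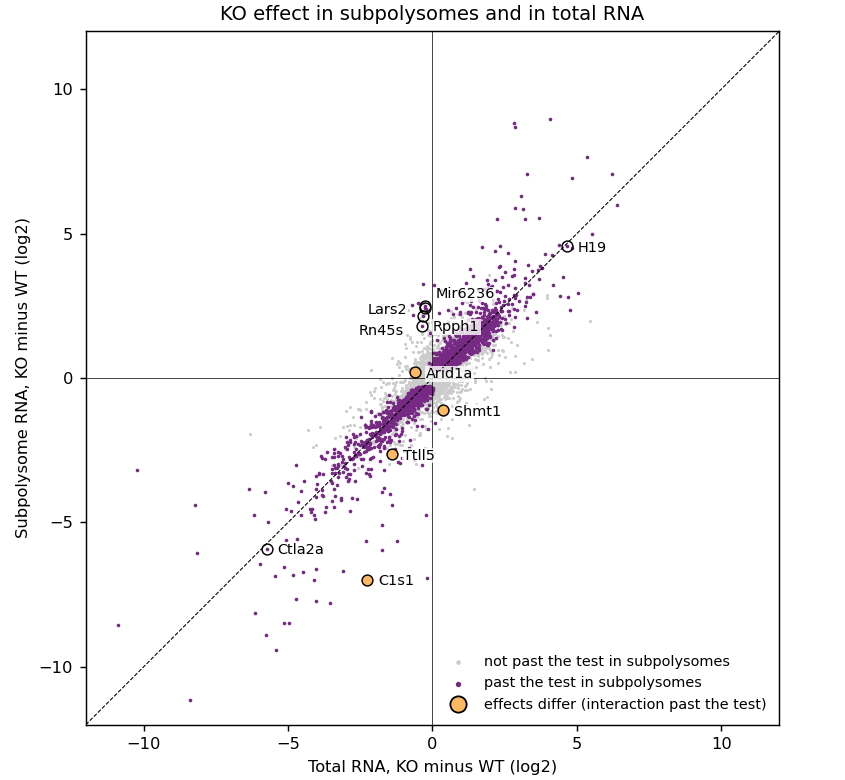
The log2 difference between KO and WT in total RNA (x axis) and in subpolysome RNA (y axis) for each gene tested in both, with a dashed line where they are equal. Purple genes passed in subpolysomes, and the orange circles mark the 4 genes whose effects differ by the interaction test: Arid1a, Shmt1, Ttll5 and C1s1.

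Arid1a itself was one of the 4. It lies on chromosome 4 (133679008 to 133756769, GRCm38.p6). In subpolysomes it had 39.3, 40.1 and 35.7 CPM in WT against 49.4, 41.6 and 40.3 in KO libraries. The KO libraries were thus slightly above WT, and the difference did not pass (log2 0.19, SE 0.12, adjusted p = 0.276). In total RNA the levels were 140, 157 and 142 CPM in WT against 93.1, 93.3 and 104 in KO, all KO libraries below WT (log2 -0.60, SE 0.06, adjusted p = 5.68e-06). The effects differed by 0.78 (SE 0.13, adjusted p = 0.0332, over alternatives 2.07e-05 to 0.239). The call was lost with library totals alone and without any 1 of the 3 WT subpolysome libraries or KO library 2 or 3. In polysomes the groups overlapped (log2 -0.48, SE 0.20, adjusted p = 0.0817). The effect in subpolysomes minus polysomes was 0.66 (SE 0.24, adjusted p = 0.877) and passed in no alternative (adjusted p from 0.227 to 0.977). Counts of the whole gene can include exons outside the deleted part, so they do not by themselves check the genotype in this fraction.

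Shmt1, the cytosolic serine hydroxymethyltransferase of folate metabolism (chromosome 11, 60788897 to 60811265), went in opposite directions. In subpolysomes it fell from 12.1, 8.32 and 13.2 to 6.48, 4.31 and 4.75 CPM (log2 -1.11, SE 0.21, adjusted p = 0.000286). In total RNA it rose from 15.7, 13.5 and 13.7 to 19.7, 16.3 and 19.6 CPM (log2 0.37, SE 0.09, adjusted p = 0.00543), and the groups did not overlap in either kind of RNA. In polysomes it had 11.3, 8.59 and 7.76 against 11.5, 9.51 and 10.6 CPM (log2 0.20, SE 0.17, adjusted p = 0.431). The effect in subpolysomes minus total RNA was -1.50 (SE 0.25, adjusted p = 0.0332, over alternatives 2.63e-05 to 0.174), and the call was lost without WT library 1 or 3 or KO library 2 or 3. Against polysomes the difference was -1.32 (SE 0.29, adjusted p = 0.2), and it passed with DESeq2 (adjusted p = 0.0173), with no filter (0.00119) and with the replicate block (0.0111).

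Ttll5, a tubulin-modifying enzyme (chromosome 12, 85824693 to 86053760), fell further in subpolysomes than in total RNA. Its subpolysome levels were 76.3, 106 and 127 CPM in WT against 15.5, 18.6 and 15.5 in KO libraries (log2 -2.64, SE 0.15, adjusted p = 1.89e-12). Total RNA had 59.1, 71.1 and 68.7 against 25.97, 25.2 and 24.7 CPM (log2 -1.39), and polysomes 43.7, 54.4 and 50.3 against 16.6, 18.6 and 14.4 CPM (log2 -1.58). The groups were apart in all 3 kinds of RNA. The difference from total RNA was -1.26 (SE 0.19, adjusted p = 0.0332, over alternatives 1.44e-07 to 0.161) and was lost without WT library 2 or 3 or any 1 of the KO libraries. Against polysomes the difference was -1.07 (SE 0.22, adjusted p = 0.169), and it passed with DESeq2 (adjusted p = 0.0167), with no filter (4.91e-05), with the replicate block (0.00213) and without WT library 1 (0.0341). Erg28 and the predicted genes Gm51989 and Gm51990 overlap the Ttll5 locus in the RefSeq annotation.

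C1s1, a serine protease of the complement system (chromosome 6, 124530344 to 124542392), was nearly absent from KO subpolysomes. Its raw counts were 77, 114 and 117 in WT and 1, 0 and 1 in KO libraries, a WT to KO ratio of 149 with a 95% counting interval from 40.8 to 1233 (exact binomial, counting error only). In total RNA the levels were 5.37, 7.27 and 7.35 CPM in WT against 0.905, 1.87 and 1.41 in KO (log2 -2.25, SE 0.23, adjusted p = 7.12e-06), and in polysomes the log2 difference was -2.11 (SE 0.21, adjusted p = 7.08e-07). All KO libraries were below WT in each. The fitted differences between effects, which depend on how the near-zero counts are treated, were -4.86 against total RNA (SE 0.78, adjusted p = 0.0332, over alternatives 9.01e-05 to 0.166) and -5.00 against polysomes (SE 0.72, adjusted p = 0.0119, over alternatives 1.09e-06 to 0.113). The first was lost without WT library 2 or 3 or any 1 of the KO libraries, and the second without KO library 1 or 2. Of the 50-base windows of C1s1 transcripts 21.8% also occur in its paralog C1s2, so reads can be exchanged with it. Without 1 library at a time, the number of genes whose effect differed from that in total RNA ran from 0 to 5, with 0 without WT library 3, KO library 2 or KO library 3.

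The remaining genes called in opposite directions in subpolysomes and total RNA were Rn45s, Lars2, Mir6236 and Rpph1. Rn45s is the precursor of ribosomal RNA. Lars2 encodes a mitochondrial leucyl-tRNA synthetase, and its row is known to collect ribosomal RNA reads in mouse data. Mir6236 and Mir6240 are annotated as microRNA hairpins, and Rpph1 is the RNA of RNase P (chromosome 14, 50807447 to 50807771). The mature sequences that RefSeq gives for both microRNA rows (GRCm38.p6) are printed to show what the rows are named for. Capitals mark the seed, bases 2 to 8, and the seeds of both differ.
mmu-miR-6236 (chr9:110281353-110281371, plus): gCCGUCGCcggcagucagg
mmu-miR-6240 (chr5:114851973-114851998, plus): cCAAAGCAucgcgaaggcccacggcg
The libraries are of long RNA, so counts on these rows are reads placed on the hairpin loci, and no mature microRNA was measured.

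The 4 rRNA-like rows together took 0.623%, 0.578% and 1.29% of the counts in WT subpolysomes and 1.09%, 2.28% and 8.06% in KO subpolysomes. KO library 3 was far above the others, and KO library 1 lay within the WT range. The mean was 0.831% ± 0.399 in WT and 3.81% ± 3.73 in KO (SD, n = 3 and 3), and a 2-sided exact permutation test gave p = 0.2, where 3 against 3 cannot go below 0.1. Without KO library 3 the difference of the means shrank from 2.98 to 0.855 percentage points. In total RNA the same rows took 2.27% to 2.85% in all 6 libraries, and in polysomes 0.219% to 2.89%.

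**Figure D5:**
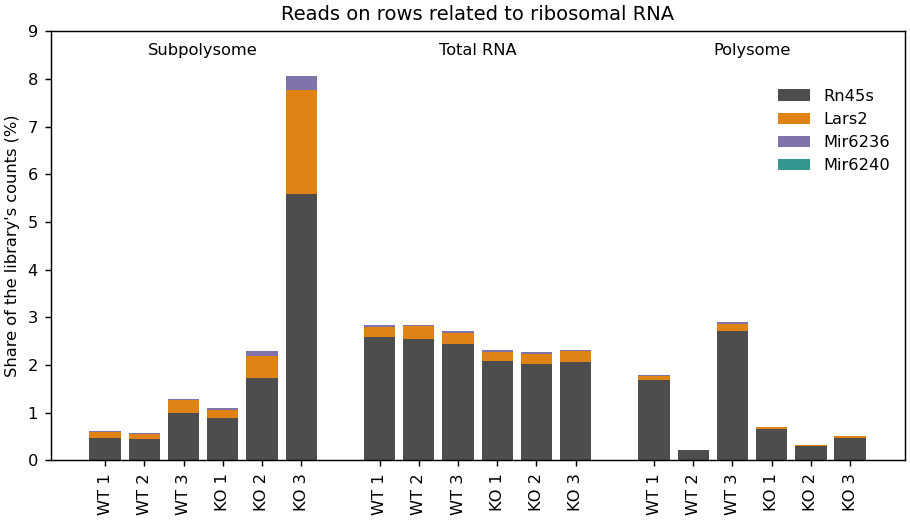
Share of each library's counts on Rn45s, Lars2, Mir6236 and Mir6240, in percent, stacked by row, for the 6 libraries of each kind of RNA. Among subpolysomes KO library 3 reaches 8.06% while the other 5 libraries stay at or below 2.28%.

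Row by row, Rn45s had 4215, 4418 and 10400 CPM in WT against 9089, 16630 and 57510 in KO subpolysomes (log2 2.13, SE 0.41, adjusted p = 0.000361). WT library 3 lay above KO library 1, so the groups overlapped. Without KO library 3 the difference was 1.02, and with DESeq2 it did not pass (adjusted p = 0.073). Lars2 had 1295, 1208 and 2876 against 1822, 4551 and 22390 CPM (log2 2.42, SE 0.50, adjusted p = 0.000768), 0.83 without KO library 3, and it did not pass with DESeq2 (adjusted p = 0.0842). Mir6236 had 193, 187 and 367 against 322, 901 and 3002 CPM (log2 2.50, SE 0.43, adjusted p = 0.0001), and 1.30 without KO library 3. Mir6240 alone was apart between the groups, with 1.80, 1.38 and 2.42 against 2.78, 8.80 and 22.8 CPM (log2 2.61, SE 0.44, adjusted p = 7.16e-05), and 1.63 without KO library 3.

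In total RNA Rn45s had 25990, 25610 and 24580 CPM in WT against 20760, 20130 and 20400 in KO (log2 -0.31, SE 0.03, adjusted p = 1.34e-05), and Lars2 (log2 -0.25, adjusted p = 0.00384) and Mir6236 (log2 -0.26, adjusted p = 0.0069) were lower as well, with every KO library below every WT library. In polysomes all 4 rows were lower in KO, with log2 differences from -2.54 (Mir6240) to -1.64 (Lars2), and their groups overlapped. These 4 rows were the only genes called in opposite directions in subpolysomes and polysomes, among the 2758 called in subpolysomes and tested in polysomes. The same direction was called for 2071, where 14.9% of all genes tested in polysomes were called higher and 13.8% lower. The interaction with total RNA did not pass for any of the 4 rows (adjusted p from 0.443 to 0.629). It passed for all 4 with no filter on low counts, and for Rn45s, Mir6236 and Mir6240 with the replicate block. Mir6236 and Mir6240 also passed without KO library 1. Rpph1 had 0.466, 0.445 and 1.40 CPM in WT against 1.12, 2.46 and 4.51 in KO subpolysomes, with overlapping groups (log2 1.80, SE 0.54, adjusted p = 0.0164), and the call was lost without WT library 1, WT library 2 or KO library 3. Its interaction with total RNA (adjusted p = 0.533) passed with no filter and with the replicate block. Without the 4 rows 2797 genes were called, 2775 of them among the 2782 reported. The part of these reads in the other results was not tested further.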

How the data were processed

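The authors deposited raw read counts per gene symbol, 1 file per library, with no normalization. Per the submitters' processing notes, Bowtie and HTSeq were used with the mm10 mouse genome. Neither versions nor annotation, strand setting or the treatment of multiply matching reads could be read from the labels. Per the labels' protocols, organoid lysates were fractionated on a sucrose gradient.

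The 24421 gene rows of 18 organoid libraries were read, and 4 libraries of cancer organoids were not used. The quasi-likelihood F test of edgeR 4.0.16 (R 4.3.3), after TMM scaling and filterByExpr, served at a Benjamini-Hochberg adjusted p under 0.05 for KO against WT in the 6 subpolysome libraries, the same in total RNA and in polysomes, and the interaction over 12 libraries. The SE is the log2 difference divided by the square root of F. Scripts were tested on simulated data. DESeq2 1.42.0, RLE factors, library totals, no filter, no rRNA-like rows, the replicate block, each library left out and a fit over 18 libraries were the alternatives. The replicate block was the replicate number within subpolysomes, and genotype and replicate number together in the interactions.

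The members, the 38 gene lists and the tests were chosen with earlier results of these data known. Genes are named by size (12 in each direction, among called genes whose groups do not overlap and whose average log2 CPM reaches 4, without predicted models), as the 3 members of each list with the smallest p or as members called against most of their list, from a fixed set, or for opposite or differing effects. Further list members named as examples (Upk1a, Gclm, Nqo1, Col4a1, Col4a2, Rps6, Rpl15, Eef1a1) were chosen after their values were seen. Ratios of subpolysomes to polysomes used TMM factors over 18 libraries, a pseudocount of 0.5 CPM and genes with a mean of at least 1 CPM. Coordinates and sequences are from RefSeq on GRCm38.p6, which is mm10.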

Additional observations from a re-analysis of the deposited data

Results flagged for a closer look

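Differences between the KO effect in subpolysomes and the KO effect in total RNA passed the interaction test for 4 genes. The difference was 0.78 for Arid1a, -4.86 for C1s1, -1.50 for Shmt1 and -1.26 for Ttll5 on the log2 scale, all at an adjusted p of 0.0332 by edgeR's quasi-likelihood test. Against polysomes the test passed for C1s1, with a difference of -5.00 (adjusted p = 0.0119). Shmt1 (-1.32) and Ttll5 (-1.07) did not pass there, and both passed with DESeq2, with no filter on low counts and with the replicate block. Groups of 3 libraries were not tested for single outlying samples.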

How the results depend on the processing

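In the KO against WT comparison of subpolysomes the counts of higher and lower genes stayed within 1.5 times the reported 1391 and 1391, except the lower genes in the fit over all 18 libraries (2112, beside 2008 higher). Without 1 library at a time 1000 to 1293 genes were higher and 993 to 1257 lower, and the replicate block gave 1597 and 1656. The interaction with total RNA (4 genes) gave 13 with DESeq2, 20 with no filter, 14 with the replicate block and 0 to 5 without 1 library. The interaction with polysomes (1 gene) gave 12, 29, 15 and 0 to 2. The rRNA-like difference of 2.98 percentage points ran from 0.855 to 4.34 without 1 library. Same-numbered WT and KO subpolysome libraries deviated together with correlations of 0.034, 0.036 and 0.069 over all genes tested, each library correlating best with its own number. Over the 8128 genes above an average log2 CPM of 3, a choice made after seeing the data, they were 0.149, 0.131 and 0.227. The labels do not say that numbers pair the libraries, and they were not treated as paired outside the replicate block. For named genes and differences (183 results) the alternatives kept the call 2187 times, lost it 139 times, gained it 27 times and changed the sign 3 times, in genes that did not pass: Myc (-0.228 to 0.0598 without 1 library, above 0 without WT library 1) and Krt5 (-0.000397 with library totals, and -0.00395 to 0.0598 without 1 library, below 0 without WT library 2). The cause was not tested. A level of 1 CPM rests on about 39.2 counts in the shallowest library, which limits genes near the filter.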
